A study of Mus musculus with 12 samples.

Results

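The ID genes Id1, Id2, Id3 and Id4 were read in 8 liposarcomas and 4 white fat samples of the mouse. Each gene had 1 row of its own in the deposited table, found by its symbol, and together they are 4 of 37750 rows. None of the 4 rows joins several genes or repeats a symbol. The family was chosen by its FPKM levels in these same LPS and WAT libraries, which were known, so the levels below are described and carry no test.

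Liposarcomas (LPS) came from Ad/NICD mice 9 to 12 months of age, and white adipose tissue (WAT) came from Ad/NICD mice 3 weeks of age, all on a 129 x C57BL/6 background. Ad/NICD mice carry the intracellular domain of Notch1, the form of this receptor that acts in the nucleus. Both groups carry it, the cell type or promoter that drives it is not given in the labels, and no fat without the transgene was analysed here. Ribosomal RNA was removed from total RNA of frozen tissue before stranded libraries were made, each from a biological replicate per the labels. Age and tissue differ together between LPS and WAT, so their parts in any difference cannot be told apart. In bulk tissue, fewer cells of a type and less RNA per cell cannot be told apart either.

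ID proteins hold a helix-loop-helix domain but lack the basic stretch with which related factors grip DNA. They pair with E proteins, the common partners of tissue-specific basic helix-loop-helix (bHLH) factors, and so keep these pairs off their E-box sites. BMP signals, through the receptor-activated SMAD proteins, are a classic inducer of Id1, Id2 and Id3. Id4 is known in mice to favour the formation of fat cells. The helix-loop-helix domain is the stretch in which the 4 genes are most alike. The most alike window of 120 coding bases is shown because it defines the family and bears on how well reads can be told apart. Capitals mark the 69 bases (57.5%) that are the same in all 4 genes. The sequences are from GENCODE M21 transcripts on GRCm38, and coding positions are counted from the start codon.
Id1, bases 178 to 297: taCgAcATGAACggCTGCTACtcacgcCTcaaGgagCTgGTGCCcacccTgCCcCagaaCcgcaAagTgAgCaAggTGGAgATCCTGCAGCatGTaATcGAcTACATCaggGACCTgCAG
Id2, bases 109 to 228: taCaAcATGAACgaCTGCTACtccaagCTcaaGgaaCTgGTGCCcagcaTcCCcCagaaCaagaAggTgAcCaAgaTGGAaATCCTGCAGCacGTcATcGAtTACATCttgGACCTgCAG
Id3, bases 124 to 243: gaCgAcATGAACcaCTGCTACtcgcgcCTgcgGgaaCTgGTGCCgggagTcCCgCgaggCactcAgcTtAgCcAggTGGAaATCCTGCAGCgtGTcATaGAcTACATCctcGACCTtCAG
Id4, bases 196 to 315: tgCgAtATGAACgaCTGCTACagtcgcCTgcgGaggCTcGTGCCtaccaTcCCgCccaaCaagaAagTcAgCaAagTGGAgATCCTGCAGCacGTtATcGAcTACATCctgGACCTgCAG

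In this window Id1 and Id2 were the closest pair, at 81.7% of bases, and Id3 matched both Id1 and Id4 at 70.8%. Over whole transcripts the longest exact stretch that any 2 members share was 19 bases, in Id2 and Id3. The 4 genes code for 148 (Id1), 134 (Id2), 119 (Id3) and 161 (Id4) residues.

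The values are FPKM, fragments per kilobase of transcript scaled by library size, as the authors deposited them. Their sums ran from 771665 to 923028 in 11 libraries and reached 996090 in LPS 5, where the row Gm10800 alone held 361556 FPKM, against at most 3340 FPKM elsewhere. LPS 5 had a median ratio of 0.814 to the libraries' geometric mean, against 0.991 to 1.06 in the others, and was not rescaled. Fragment totals are not in the table. The low values of long single-transcript genes put the worth of about 1 fragment of Id4 between 0.00825 and 0.0214 FPKM by library. Markers of adipocytes summed to 3.12 to 39.9 FPKM in LPS, against 4540 to 5506 FPKM in WAT. Pericyte and smooth muscle markers summed to 3691 to 7787 FPKM in LPS, against 273 to 321 FPKM in WAT. Skeletal muscle markers summed to 0.840 to 347 FPKM in LPS, and in WAT to 1419 FPKM in WAT 1, 1163 FPKM in WAT 4, 169 FPKM in WAT 3 and 3.73 FPKM in WAT 2. The Notch1 row held 64.0 ± 15.7 FPKM in LPS (SD, n = 8) and 29.7 ± 6.98 FPKM in WAT (SD, n = 4), and it does not separate the transgene from the gene.

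Id1, the founding member of the family, lies at chr2:152736251-152737410 (GRCm38). Its level was 14.8, 66.6, 37.9, 21.9, 31.4, 44.9, 24.9 and 30.1 FPKM in LPS 1 to LPS 8, and 32.6, 38.6, 41.9 and 34.0 FPKM in WAT 1 to WAT 4. LPS 2 was the highest tumour and LPS 1 the lowest, 2 tumours lay above all fat samples, and 5 lay below all of them. The mean was 34.1 ± 16.1 FPKM in LPS and 36.8 ± 4.27 FPKM in WAT (SD, n = 8 and n = 4), which gives -0.23 for LPS minus WAT on the log2(FPKM + 1) scale. In FPKM the means thus differed by less than the SD between tumours, and the same held for the means of Id2, Id3 and Id4 below. On the log2 scale the difference of Id2, -1.42, was larger than its SD between tumours, 1.25.

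Id2, which also binds the retinoblastoma protein, lies at chr12:25093801-25096092. LPS 1 to LPS 8 held 12.4, 2.37, 3.58, 2.59, 9.47, 4.65, 35.4 and 1.93 FPKM of Id2, and WAT 1 to WAT 4 held 15.3, 21.8, 14.2 and 18.9 FPKM. LPS 7 stood above every fat sample and the other 7 tumours stood below every fat sample. The median of Id2 was 4.12 FPKM in LPS and 17.1 FPKM in WAT, and the mean was 9.06 ± 11.3 FPKM in LPS and 17.5 ± 3.46 FPKM in WAT. The log2 difference was -1.42, the lowest of the family.

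Id3, a member that is often expressed beside Id1 in vessels, lies at chr4:136143497-136145755. In LPS 1 to LPS 8 its level was 17.5, 27.3, 30.5, 18.1, 35.9, 100.7, 16.1 and 11.0 FPKM, and in WAT 1 to WAT 4 it was 46.9, 47.5, 46.6 and 37.0 FPKM. As for Id2, a single tumour, here LPS 6, exceeded all fat samples and 7 tumours lay below all of them. Id3 averaged 32.1 ± 28.9 FPKM in LPS and 44.5 ± 5.03 FPKM in WAT, a log2 difference of -0.78, and its medians were 22.7 FPKM in LPS and 46.8 FPKM in WAT.

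Id4 was the member with the widest range. It stood at 66.4, 0.149, 122, 1.27, 0.665, 1.23, 85.0 and 0.298 FPKM in LPS 1 to LPS 8, and at 1.60, 1.72, 1.49 and 3.60 FPKM in WAT 1 to WAT 4. LPS 1, LPS 3 and LPS 7 were far above every fat sample, and the other 5 tumours were below every fat sample. Between 1.27 and 66.4 FPKM no tumour was found, a gap of 52.4-fold. The mean was therefore higher in LPS, at 34.6 ± 49.2 FPKM, than in WAT, at 2.10 ± 1.00 FPKM, while the median was lower, at 1.25 FPKM in LPS against 1.66 FPKM in WAT. The log2 difference of Id4 was 1.30 with all libraries, and it was 0.85 without LPS 1, 0.72 without LPS 3 and 0.80 without LPS 7. The lowest level, in LPS 2, amounted to the worth of about 12.7 fragments, and that in LPS 3 to about 9387.

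**Figure D1:**
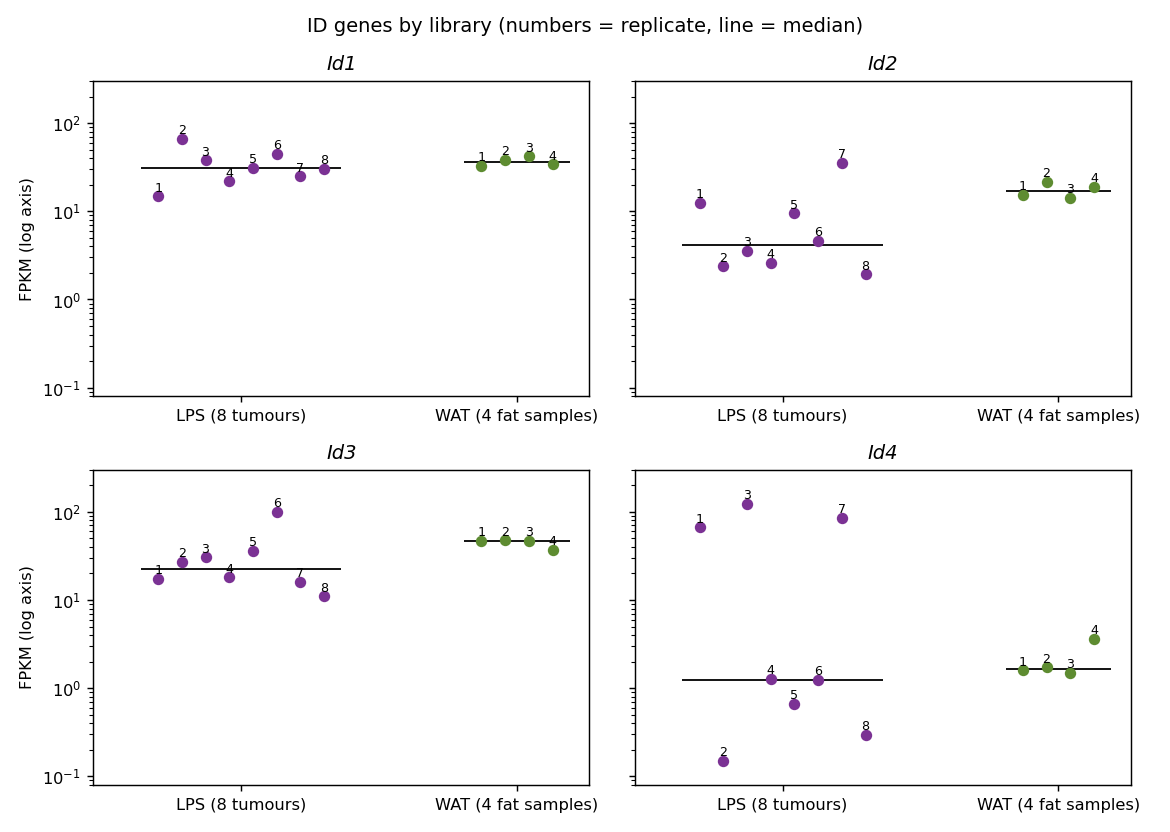
Level of Id1, Id2, Id3 and Id4 in each library, in FPKM on a log axis, with 1 point per library numbered by replicate and a line at the group median. The 4 WAT points span less than the 8 LPS points in every panel. For Id4 they run from 1.49 to 3.60 FPKM in WAT and from 0.149 to 122 FPKM in LPS. For Id2 the LPS points run from 1.93 to 35.4 FPKM.

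For all 4 members some tumours lay above every fat sample and others below, so LPS and WAT overlapped. Of all 14821 rows tested, 32.6% had LPS and WAT values that did not overlap (11.8% higher and 20.9% lower in LPS). All 4 members passed the filter for that set, which asks for at least 1 FPKM in at least 4 libraries. All 4 members spread more between tumours than the median row did. The SD of log2(FPKM + 1) over the 8 tumours was 0.64 for Id1, 1.25 for Id2, 0.95 for Id3 and 3.00 for Id4, against 0.35 for the median row tested. Id4 stood at percentile 99.8 of that SD, among 28 rows with at least its value, Id2 at 96.9, Id3 at 93.3 and Id1 at 83.2. Over the 4 fat samples the SD was 0.16 for Id1, 0.27 for Id2, 0.17 for Id3 and 0.41 for Id4, with 0.17 for the median row. Within WAT, Id4 stood at percentile 89.6 of that SD, Id2 at 75.3, Id3 at 51.7 and Id1 at 49.0.

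The members took different places in different tumours. In all 4 fat samples the order by level was Id3, Id1, Id2 and Id4. Among the tumours Id4 was the most abundant member in LPS 1, LPS 3 and LPS 7, Id1 in LPS 2, LPS 4 and LPS 8, and Id3 in LPS 5 and LPS 6. Id1 and Id3 were neighbours in the order of WAT with ranges of 32.6 to 41.9 and 37.0 to 47.5 FPKM that overlap, whereas the ranges of Id2 and Id4 did not touch those of any other member there. In LPS the ranges of all 4 members overlapped.

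Summed over the family, the mean levels of LPS and WAT in FPKM differed by less than the SD between tumours, as those of each member did in FPKM. The sum ran from 43.3 to 194 FPKM in LPS (mean 110 ± 55.5 FPKM) and from 93.4 to 110 FPKM in WAT (mean 101 ± 7.38 FPKM). LPS 4, LPS 5 and LPS 8 held less than any fat sample, and LPS 1, LPS 3, LPS 6 and LPS 7 held more. Without Id4 the sum averaged 75.2 ± 36.1 FPKM in LPS and 98.8 ± 8.06 FPKM in WAT. Id4 made up 0.155 to 62.9% of the sum in LPS and 1.43 to 3.85% in WAT. The share of Id3 was 9.97 to 66.5% in LPS and 39.6 to 48.7% in WAT, that of Id1 13.3 to 69.5% in LPS and 33.8 to 40.2% in WAT, and that of Id2 1.84 to 22.0% in LPS and 13.6 to 20.2% in WAT.

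**Figure D2:**
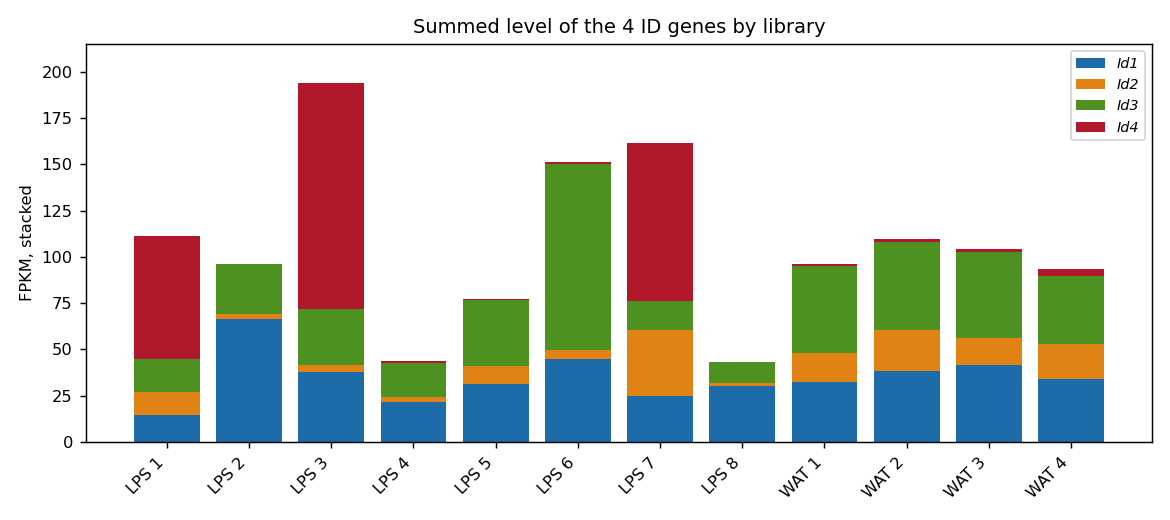
Summed FPKM of Id1, Id2, Id3 and Id4 in each library, as stacked bars from 0 with 1 colour per gene. Id4 fills the largest block in LPS 1, LPS 3 and LPS 7 and is barely visible in the other LPS and in the WAT libraries, and the height runs from 43.3 to 194 FPKM in LPS and from 93.4 to 110 FPKM in WAT.

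The locus of Id4 needs a caution. GENCODE places Id4 at chr13:48261228-48266026 on the plus strand, and the antisense long noncoding RNA A330033J07Rik starts inside it on the minus strand (chr13:48044231-48262623). The deposited table gives both rows a shared locus, chr13:48044231-48264036. The libraries mark strand, but the sources used here do not say whether the counting used it, so reads of the overlapping stretch cannot be told apart. The row of A330033J07Rik read 1.20 FPKM in LPS 1, 2.41 FPKM in LPS 3 and 0.851 FPKM in LPS 7, which is 1.81%, 1.98% and 1.00% of the Id4 level in those tumours. Beside the low Id4 levels the share was larger in part, at 33.8% in LPS 5, 14.1% in LPS 2, 6.05% in LPS 6 and 0.840 to 5.65% in WAT. In the other tumours it was at most 0.225 FPKM, listed at 0 in LPS 4 and LPS 8, and in WAT it was 0.0134 to 0.0972 FPKM. A further noncoding row near the gene, A330048O09Rik at chr13:48272416-48273884, read 0.356 FPKM in LPS 1, 0.316 FPKM in LPS 3 and 0.400 FPKM in LPS 7 and was listed at 0 in the other 9 libraries.

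Upstream sequences were taken for the members whose levels ranged most between tumours, Id2 and Id4, to show which letters stand before their starts. Each is the 250 bases before the RefSeq start on GRCm38.p6, read along the gene's strand. Capitals mark GGCGCC, the core of the GC-rich element that BMP SMADs bind, CANNTG, the E-box of bHLH factors, and CCAAT, the box of NF-Y, each searched on both strands. GTGGGAA, the motif of the Notch partner RBPJ, was searched as well.
Id2, chr12:25096093-25096342, minus strand: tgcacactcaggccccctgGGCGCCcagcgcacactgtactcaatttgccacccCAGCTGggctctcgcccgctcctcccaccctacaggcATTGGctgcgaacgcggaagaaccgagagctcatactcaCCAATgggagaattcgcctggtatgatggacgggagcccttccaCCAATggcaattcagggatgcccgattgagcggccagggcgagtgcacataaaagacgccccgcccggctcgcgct
Id4, chr13:48260866-48261115, plus strand: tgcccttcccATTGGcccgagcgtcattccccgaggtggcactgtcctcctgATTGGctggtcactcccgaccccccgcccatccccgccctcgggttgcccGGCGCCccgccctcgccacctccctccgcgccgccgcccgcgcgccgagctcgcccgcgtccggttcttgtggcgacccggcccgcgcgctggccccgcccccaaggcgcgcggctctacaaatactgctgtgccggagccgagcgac

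Id2 held GGCGCC once, CANNTG once and CCAAT at 3 places. Id4 held GGCGCC once and CCAAT at 2 places, and CANNTG was not among its letters. GTGGGAA was in neither window, and the window of Id3 (chr4:136143572-136143821) held none of the 4 motifs. That window lies inside the locus given for Id3 above, so the bases before that locus were not searched. No window was at hand for Id1. The motifs did not overlap each other. Of 32851 windows of the same length, 9.59% held GGCGCC, 66.2% CANNTG, 33.8% CCAAT and 5.42% GTGGGAA. Id4's window had 75.6% G and C bases and Id2's 62.8%.

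Rows that followed each member over the 8 tumours were named by the root mean square (RMS) difference of log2(FPKM + 1) after centring on the LPS mean. Candidates were 10519 rows for Id1, Id2 and Id3 and 10520 for Id4, each with at least 1 FPKM in all 8 tumours. The closest to Id1, whose own RMS was 0.60, were Vash1, an inhibitor of vessel growth (0.26), Trp53i11 (0.29) and Rapgef5, an activator of RAP GTPases (0.29). Vash1 was highest in LPS 2, at 17.3 FPKM, and lowest in LPS 1, at 4.60 FPKM, as Id1 was. Of 10 endothelial markers, 9 had a row of their own and summed to 247 to 428 FPKM in LPS and 221 to 322 FPKM in WAT. Single markers differed in opposite directions within this sum. Kdr read 5.13 to 14.2 FPKM in LPS and 33.4 to 40.2 FPKM in WAT, while Esam read 91.8 to 234 FPKM in LPS and at most 44.7 FPKM in WAT. Emcn, at 24.2 to 80.3 FPKM in LPS and 10.3 to 11.2 FPKM in WAT, was also higher in every tumour than in any fat sample. For Pecam1, Cdh5, Cldn5, Erg and Tek most tumours lay below every fat sample, but the ranges overlapped. Pecam1 read 11.8 to 49.4 FPKM in LPS and 48.1 to 69.4 FPKM in WAT. Cldn5 read 3.48 to 29.8 FPKM in LPS and 29.3 to 75.8 FPKM in WAT. Tie1 lay on both sides of the WAT range. The part of vessel cells in the pattern of Id1 was not tested.

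The 3 rows closest to Id2 were Fcgr4, an Fc receptor of macrophages and neutrophils (RMS 0.44), Itgb2, the integrin beta chain of leukocytes (0.47), and Sla, an adaptor of lymphocyte and myeloid signalling (0.47), with 1.17 for Id2 alone. Fcgr4 read 97.5 FPKM in LPS 7 and 45.3 FPKM in LPS 1, the 2 tumours highest in Id2, and 3.99 FPKM in LPS 8, the lowest in Id2. In WAT, Fcgr4 read 0.259 to 0.698 FPKM, Itgb2 13.6 to 23.5 FPKM and Sla 9.39 to 16.7 FPKM. The summed level of 7 of 8 macrophage markers with a row of their own was 227 to 766 FPKM in LPS and 202 to 292 FPKM in WAT, highest in LPS 1 (766 FPKM), LPS 7 (586 FPKM), LPS 6 (562 FPKM) and LPS 5 (458 FPKM). T and NK cell markers summed to 54.5 FPKM in LPS 7 and 36.5 FPKM in LPS 1, to 2.64 to 11.4 FPKM in the other 6 tumours, and to 60.6 to 93.9 FPKM in WAT. Cd4 alone made up 48.2 FPKM of the sum in LPS 7. The other 7 markers summed to 6.27 FPKM there, against 30.5 FPKM in LPS 1, 7.59 FPKM in LPS 6 and 49.6 to 78.2 FPKM in WAT. The part of white blood cells in the level of Id2 was not tested.

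Id3 was followed most closely by Plk2, a stress-responsive kinase (RMS 0.43), Pde4b, a phosphodiesterase of cyclic AMP (0.44), and Gadd45g, a growth arrest gene (0.47), with 0.89 for Id3 alone. All 3 peaked in LPS 6, at 21.7, 14.2 and 25.7 FPKM. The AP-1 gene Junb, counted among BMP targets below, also peaked there, at 296 FPKM.

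The rows closest to Id4 were Tnxb, a matrix glycoprotein (RMS 1.14), Fabp4, the fatty acid binding protein of adipocytes (1.17), and Gipr, the receptor of the incretin GIP (1.23), with 2.81 for Id4 alone. Tnxb read 58.6 FPKM in LPS 1, 96.1 FPKM in LPS 3 and 13.2 FPKM in LPS 7, against at most 2.53 FPKM in the other tumours and 31.5 to 49.0 FPKM in WAT. Fabp4 read 2000, 1229 and 1070 FPKM in the same 3 tumours, at most 135 FPKM in the others and 6301 to 7688 FPKM in WAT. Pparg, the master factor of fat cell formation, was the fifth closest row (RMS 1.37). It read 82.2 FPKM in LPS 1, 94.2 FPKM in LPS 3, 66.5 FPKM in LPS 7, 2.93 to 16.4 FPKM in the other tumours, and 70.4 to 134 FPKM in WAT. WAT, with Pparg and Fabp4 high, held at most 3.60 FPKM of Id4. Adipoq, the adiponectin gene that defines mature adipocytes, was near 0 in the 3 tumours, at 0.243, 0.245 and 1.60 FPKM, against 514 to 631 FPKM in WAT. Plin1, which coats the lipid droplet, read 32.2 FPKM in LPS 1, 2.42 FPKM in LPS 3 and 0.594 FPKM in LPS 7, at most 1.71 FPKM in the other tumours, and 417 to 485 FPKM in WAT. All 8 adipocyte markers summed to 37.6 FPKM in LPS 1, 8.54 FPKM in LPS 3 and 10.5 FPKM in LPS 7, to 3.12 to 39.9 FPKM in the other tumours, and to 4540 to 5506 FPKM in WAT.

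With candidates above 1 FPKM in only 3 tumours allowed, an alternative chosen after the data were seen, Timp4, an inhibitor of matrix metalloproteinases, became the closest row to Id4 (RMS 0.47). Timp4 read 65.3 FPKM in LPS 1, 74.9 FPKM in LPS 3, 97.9 FPKM in LPS 7, at most 1.43 FPKM in the other tumours, and 34.8 to 106 FPKM in WAT. Tnxb was then the seventh row for Id4, and Fabp4 and Gipr were not among the first 8. The same candidates put Ptpn22 (RMS 0.41), Pik3r5 (0.43) and Cd300lf (0.44) ahead of Fcgr4 for Id2, put 1700023H06Rik (0.42) first for Id3, and left Vash1 first for Id1. Among the members themselves Id1 and Id3 were the closest pair (RMS 0.77), and Id4 was far from Id1 (3.13), Id3 (3.11) and Id2 (2.30).

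**Figure D3:**
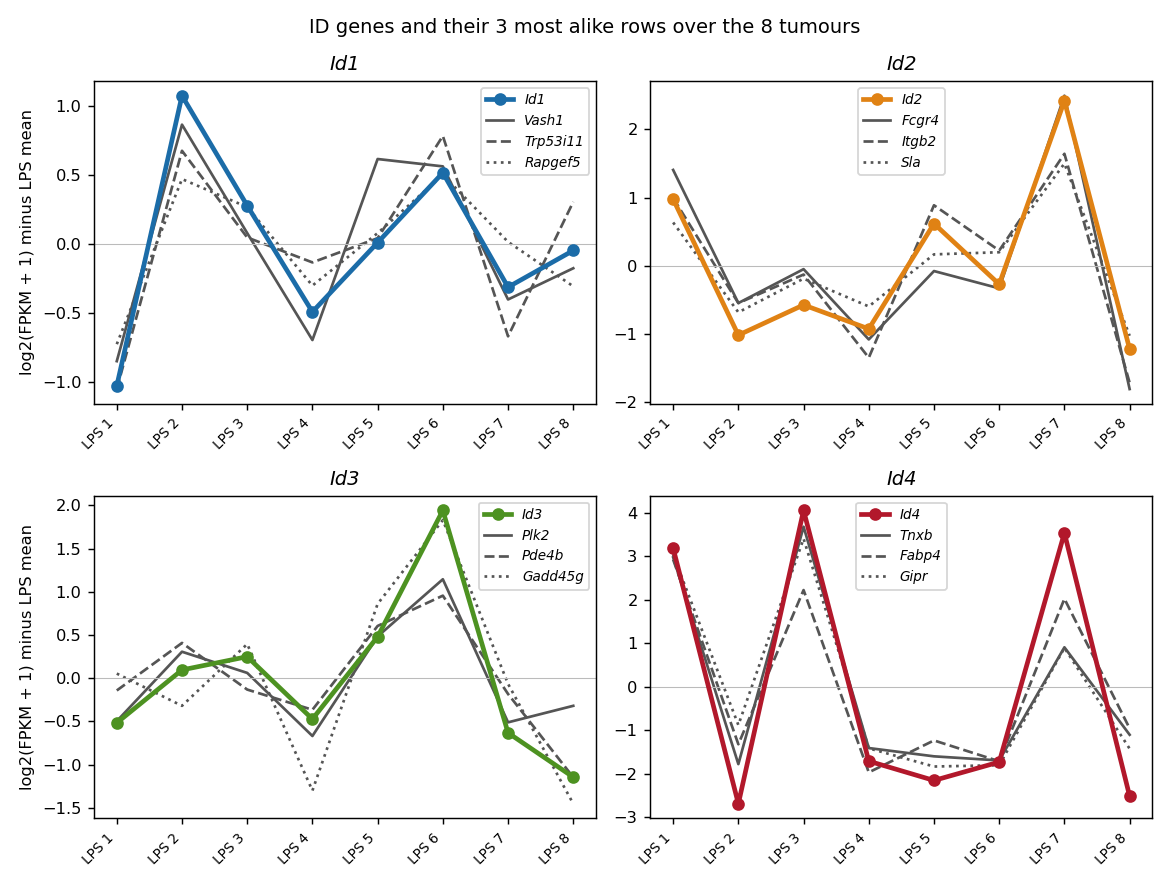
log2(FPKM + 1) minus its LPS mean for each ID gene (coloured, with points) and the 3 rows most like it (grey lines) over LPS 1 to LPS 8, with a panel per gene and its own vertical scale. The panels peak in different tumours: LPS 2 for Id1, LPS 7 for Id2, LPS 6 for Id3, and LPS 1, LPS 3 and LPS 7 for Id4.

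Age within the tumours, which the choice of the family did not use, gave no called slope. Animals with tumours were 9 to 12 months old, and a slope per month was fitted with limma over the 8 tumours to 13280 rows, those that reached 1 FPKM in 4 or more of them. Id1 had a log2 slope of -0.50 ± 0.13 per month (SE), Id2 one of 0.44 ± 0.37, Id3 one of -0.46 ± 0.26 and Id4 one of 0.71 ± 0.92. After Benjamini-Hochberg adjustment over all rows each of the 4 had an adjusted p of 1.00. Of all rows 0 (0.00%) passed an adjusted p of 0.05 in limma, and 228 had an unadjusted p below 0.05, Id1 among them and Id2, Id3 and Id4 not. Without each tumour in turn, the slope of Id1 stayed between -0.61 and -0.39.

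The factors that ID proteins bind or that act with them were read from lists, by limma on log2(FPKM + 1) over 14821 rows at an adjusted p below 0.05. Across all rows 46.0% were called, 18.9% higher and 27.0% lower in LPS, with a median log2 difference of -0.05. Of these calls 58.8% were lower in LPS, against 45.2% after quantile normalization. Over 9 lists, each gene once, 59 of 106 genes had a row of their own that passed the filter, and 15 were higher, 18 lower and 26 not called, with a median of 0.05. That is 55.9% of the 59, against 46.0% of all rows. The lists were chosen with earlier results of these data known, so this comparison carries no test.

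E proteins, the direct targets of ID proteins, were all expressed. Tcf4 (E2-2) read 60.1 ± 16.7 FPKM in LPS and 39.2 ± 2.36 FPKM in WAT, a log2 difference of 0.56 ± 0.19 (SE, adjusted p = 0.0249). Its highest tumour was LPS 6, at 87.9 FPKM, and its lowest, LPS 5 at 40.5 FPKM, lay within the range of WAT. The call of Tcf4 was lost without WAT 1 (adjusted p = 0.0518), WAT 2 (0.0721), WAT 3 (0.0533) or WAT 4 (0.0505), in a range of 0.00125 to 0.111 over 22 alternatives. Tcf12 (HEB) read 40.9 ± 5.44 FPKM in LPS and 35.5 ± 2.90 FPKM in WAT and Tcf3 (E12 and E47) 19.5 ± 2.68 FPKM in LPS and 18.0 ± 2.09 FPKM in WAT, and neither was called.

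Of 32 lineage bHLH genes, partners of E proteins in particular tissues, 8 were tested, of which 1 was higher, 5 were lower and 2 were not called (median -0.80). Twist1, a factor of mesenchyme, read 21.0 ± 7.18 FPKM in LPS and 10.1 ± 2.09 FPKM in WAT, a log2 difference of 0.93 ± 0.25 (adjusted p = 0.00784), and its groups did not overlap. Msc (musculin) fell to 0.223 ± 0.243 FPKM in LPS, against 3.19 ± 1.60 FPKM in WAT (log2 -1.72 ± 0.22, adjusted p = 3.25e-05). Lyl1, a factor of blood and vessel cells, fell to 1.64 ± 0.855 FPKM in LPS, against 5.75 ± 1.00 FPKM in WAT (log2 -1.40 ± 0.23, adjusted p = 0.000254). Twist2 (log2 -1.14), Atoh8 (-1.39) and Tal1 (-0.46, adjusted p = 0.0404, lost under 14 of 21 alternatives) were the other 3 lower genes. Msc and Atoh8 passed the filter through WAT, with at most 0.732 and 0.823 FPKM in LPS, so the filter largely set their direction. Tcf15, a bHLH factor of mesoderm and capillary endothelium, ranged from 2.26 to 45.6 FPKM in LPS and from 4.81 to 7.27 FPKM in WAT and was not called. Lyl1 and Msc are also known in B cells, whose markers summed to 0.576 to 4.85 FPKM in LPS and 56.1 to 148 FPKM in WAT, and those of T and NK cells are given above. Their part in these differences was not tested.

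Of 13 tested genes for other binding partners and stabilisers, 4 were higher, 1 was lower and 8 were not called (median 0.05). Elk3, an ETS factor, read 25.4 ± 5.77 FPKM in LPS and 12.1 ± 0.771 FPKM in WAT (log2 0.99 ± 0.16, adjusted p = 0.000201). Cdc20, an activator of the anaphase-promoting complex, which degrades ID proteins, read 14.2 ± 6.35 FPKM in LPS and 5.31 ± 2.87 FPKM in WAT (log2 1.29 ± 0.36, adjusted p = 0.0105). Without WAT 1 and WAT 4, the libraries with most muscle transcripts, the log2 difference of Cdc20 was 1.20 (adjusted p = 0.0547). That fit has WAT 2 and WAT 3 alone as fat samples and called 4319 of all rows, against 6813 in the main fit. Ets1 (log2 0.97) and Rbl1 (0.51) were the other 2 higher genes, and the call of Rbl1 was lost without WAT 1, WAT 3 or WAT 4. Cav1, the caveolin of fat cells and vessels, fell to 56.0 ± 24.4 FPKM in LPS, against 554 ± 62.9 FPKM in WAT (log2 -3.39 ± 0.29, adjusted p = 6.93e-07). Elk4, at 42.4 ± 6.71 FPKM in LPS and 48.1 ± 2.01 FPKM in WAT, was the most abundant gene of this list that was not called. With LPS 1, LPS 3 or LPS 7 left out in turn, 2 genes of this list were lower.

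BMP ligands, the upstream signals of ID genes, were mostly low: 5 of 14 passed the filter, of which 1 was higher, 3 were lower and 1 was not called (median -1.41). The lower ligands Bmp3, Bmp6 and Bmp7 passed the filter through WAT, with at most 0.0763, 1.23 and 0.402 FPKM in LPS. Bmp5, the higher one, passed it through LPS. The filter thus largely set these directions, and the counts and the median only describe. Bmp5 ranged from 0.238 to 21.8 FPKM in LPS, highest in LPS 4, and from 0.0873 to 0.403 FPKM in WAT. Bmp5 read 1.40 FPKM in LPS 1, 0.238 FPKM in LPS 3 and 6.39 FPKM in LPS 7, the 3 tumours high in Id4. The other tumours read 4.41 to 21.8 FPKM, a range that holds the value of LPS 7. The log2 difference of Bmp5 was 2.44 ± 0.67 (adjusted p = 0.00914). It was 2.53 without WAT 1 and WAT 4 (adjusted p = 0.0652) and 2.06 with replicate numbers as a block (adjusted p = 0.0661). Bmp3 fell to 0.0405 ± 0.0222 FPKM in LPS, against 4.08 ± 2.05 FPKM in WAT (log2 -2.17 ± 0.24, adjusted p = 8.18e-06). Bmp6 fell to 0.439 ± 0.369 FPKM in LPS, against 3.54 ± 1.10 FPKM in WAT (log2 -1.66 ± 0.20, adjusted p = 1.77e-05), and Bmp7 was the other lower ligand (log2 -1.41). Bmp2 and Bmp4, below the filter, read at most 1.59 and 2.80 FPKM in LPS and at most 1.42 and 1.35 FPKM in WAT.

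Of 9 tested BMP receptors and co-receptors, 5 were higher, 1 was lower and 3 were not called (median 0.48). Bmpr1b, a type I receptor, read 2.79 to 8.02 FPKM in LPS and 0.0869 to 0.290 FPKM in WAT, without overlap (log2 2.34 ± 0.26, adjusted p = 8.20e-06). Rgma, a co-receptor, read 15.3 ± 4.27 FPKM in LPS and 5.71 ± 1.76 FPKM in WAT (log2 1.27 ± 0.24, adjusted p = 0.000856). Acvr1 (log2 0.72), Bmpr2 (0.70) and Acvrl1 (0.48) were the other 3 higher genes, and the call of Acvrl1 was lost without LPS 3, LPS 6, LPS 8, WAT 1, WAT 3 or WAT 4. Acvr2a was lower, at 7.48 ± 1.91 FPKM in LPS and 10.8 ± 1.51 FPKM in WAT (log2 -0.51 ± 0.18, adjusted p = 0.0371), and this call was lost under 10 of 22 alternatives, among them the loss of LPS 2, LPS 4, LPS 5 or any WAT library. Bmpr1a, the most abundant receptor not called, read 26.0 ± 7.72 FPKM in LPS and 19.7 ± 2.94 FPKM in WAT, and it was called without LPS 5 (adjusted p = 0.0375, in a range of 0.0235 to 0.434).

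Of 4 genes for the SMAD proteins that carry the signal, 2 were tested, Smad1 and Smad4, and neither was called. Smad1 read 12.0 ± 3.04 FPKM in LPS and 10.2 ± 0.838 FPKM in WAT, and Smad4 read 24.5 ± 4.04 FPKM in LPS and 24.8 ± 0.236 FPKM in WAT, with a log2 difference of -0.03 ± 0.14 for Smad4. Smad5 shares a joined row, and Smad9 was below the filter, at a mean of 0.0233 FPKM in LPS and 0.155 FPKM in WAT. With no filter Smad9 was called lower (log2 -0.18 ± 0.03, adjusted p = 0.000279). Inhibitory SMADs and secreted BMP antagonists held 11 tested genes, of which 0 were higher, 6 were lower and 5 were not called (median -1.11). Of the lower ones, Chrd, Chrdl1 and Grem1 passed the filter through WAT, with at most 0.623, 0.696 and 0.0329 FPKM in LPS. The filter thus largely set their direction, and the counts and the median only describe. Chrdl1, a secreted BMP binder, fell to 0.169 ± 0.233 FPKM in LPS, against 14.2 ± 3.81 FPKM in WAT (log2 -3.68 ± 0.19, adjusted p = 9.12e-09). Grem1, the antagonist gremlin, was at most 0.0329 FPKM in LPS and 1.23 to 2.47 FPKM in WAT (log2 -1.38 ± 0.12, adjusted p = 9.27e-07). Smad6, an inhibitory SMAD that BMP signals also induce, read 1.32 ± 0.622 FPKM in LPS and 4.39 ± 0.555 FPKM in WAT (log2 -1.26 ± 0.21, adjusted p = 0.000306). Twsg1, at 25.3 ± 10.0 FPKM in LPS and 19.6 ± 1.25 FPKM in WAT, was the most abundant of the genes not called. Without LPS 1, 1 gene of this list was higher and 7 were lower.

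Other target genes of BMP SMADs were mixed, with 2 of 7 tested higher, 3 lower and 2 not called (median 0.37). The homeobox genes Msx1 and Dlx5 were higher. Msx1 read 5.21 ± 0.961 FPKM in LPS and 1.22 ± 0.0948 FPKM in WAT (log2 1.46 ± 0.15, adjusted p = 3.28e-06). Dlx5 read 3.79 ± 1.60 FPKM in LPS and 0.0890 ± 0.0368 FPKM in WAT (log2 2.07 ± 0.24, adjusted p = 1.43e-05). Smad6, Smad7 (log2 -0.87) and Atoh8 were the lower ones, Atoh8 at 0.267 ± 0.248 FPKM in LPS and 2.30 ± 0.395 FPKM in WAT (log2 -1.39 ± 0.15, adjusted p = 8.41e-06), and the call of Smad7 was lost without WAT 3. Junb read 10.0 to 296 FPKM in LPS and 12.2 to 17.0 FPKM in WAT and was not called (adjusted p = 0.151). The called targets thus went in both directions. Atoh8 passed the filter through WAT, with at most 0.823 FPKM in LPS, and Dlx5 through LPS, with at most 0.129 FPKM in WAT.

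**Figure D4:**
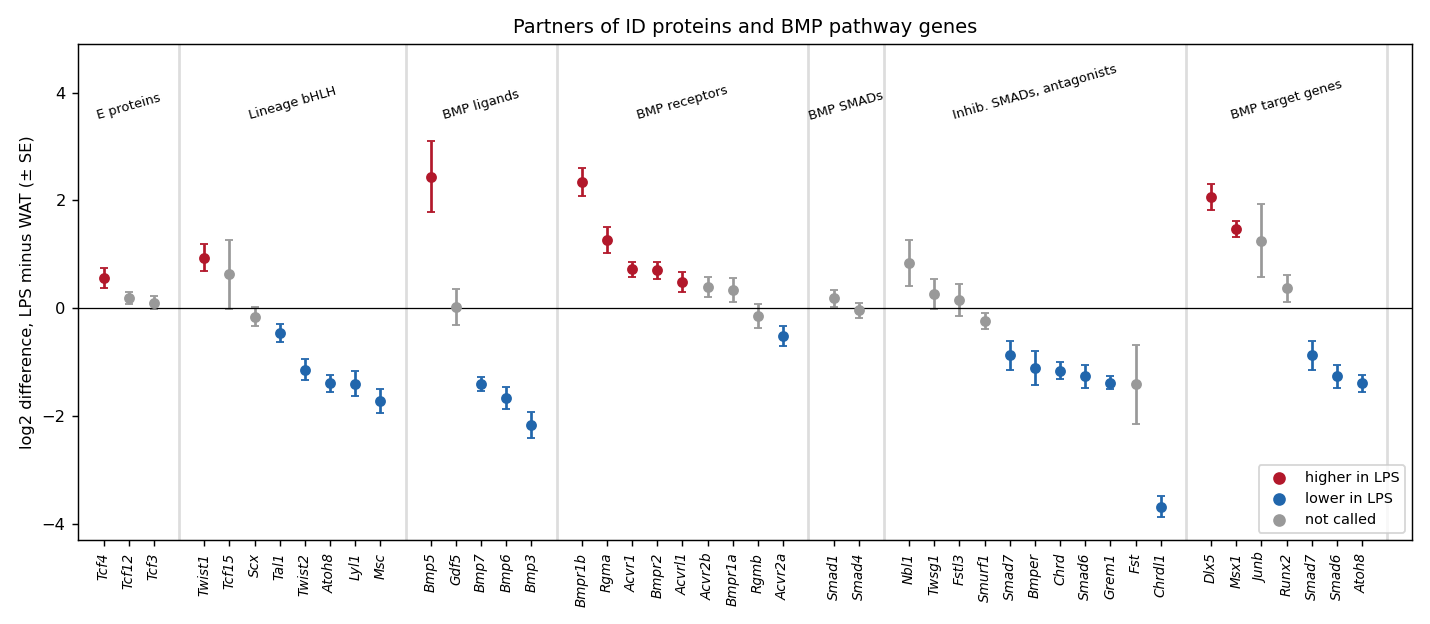
log2 difference, LPS minus WAT, of each tested gene in 7 of the 9 lists, with bars of 1 SE and colours for the limma call at an adjusted p of 0.05. BMP receptors run from Bmpr1b at 2.34 to Acvr2a at -0.51, while inhibitory SMADs and antagonists reach -3.68 for Chrdl1.

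CDK inhibitor genes, several of which E proteins or ETS factors activate and ID proteins hold back, were all tested, with 1 of 4 higher, 2 lower and 1 not called (median -0.46). Cdkn2a read 0.793 to 73.0 FPKM in LPS and 0.0617 to 0.460 FPKM in WAT (log2 4.53 ± 0.82, adjusted p = 0.000557), and its lowest tumour was LPS 3. Cdkn1a fell to 10.6 ± 7.95 FPKM in LPS, against 29.7 ± 7.28 FPKM in WAT (log2 -1.63 ± 0.42, adjusted p = 0.00687). Without WAT 1 and WAT 4 its log2 difference was -1.69 (adjusted p = 0.0542). Cdkn1c fell to 3.66 ± 3.63 FPKM in LPS, against 10.9 ± 1.23 FPKM in WAT (log2 -1.70 ± 0.49, adjusted p = 0.0130). Its log2 difference was -1.725 without WAT 1 and WAT 4 (adjusted p = 0.0889) and -1.156 with replicate numbers as a block (adjusted p = 0.0947). Cdkn2b read 6.00 ± 3.27 FPKM in LPS and 2.64 ± 0.432 FPKM in WAT and was not called, except without LPS 3 (adjusted p = 0.0281, in a range of 0.0281 to 0.823).

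Genes beside the ID genes were read as well, since position played no part in the choice of the family. Within 100 kb of a member lay 17 rows of a single name, and 9 of them were tested, of which 1 was higher, 3 were lower and 5 were not called. Over all rows tested 46.0% were called, 18.9% higher and 27.0% lower, so the neighbours were near that share. The higher gene was Cox4i2, a subunit of cytochrome c oxidase at chr2:152754173-152765037, 16.8 kb from Id1. Cox4i2 read 216 ± 70.6 FPKM in LPS and 4.64 ± 0.998 FPKM in WAT (log2 5.20 ± 0.27, adjusted p = 8.97e-09), next to an Id1 with a log2 difference of -0.23. E2f2, a cell cycle factor 26.6 kb from Id3, fell to 1.95 ± 0.841 FPKM in LPS, against 5.87 ± 0.336 FPKM in WAT (log2 -1.27 ± 0.20, adjusted p = 0.000201).

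Gm26841 near Id1 (log2 -0.47, adjusted p = 0.0195) and Asap3 near Id3 (log2 -0.55, adjusted p = 0.0266) were the other lower neighbours. Both calls were lost without WAT 1 or WAT 4, with adjusted p of 0.0519 and 0.0600 for Gm26841 and 0.0692 and 0.0853 for Asap3, and that of Asap3 also without WAT 3 (0.0519). Gm26841, Mcts2 and H13 share a locus in the table, so their levels are uncertain. Mcts2 (log2 -0.46, adjusted p = 0.0604), H13 (-0.03), Bcl2l1 (0.09), Kidins220 beside Id2 (-0.04) and Rpl11 beside Id3 (-0.21) were not called, and Mcts2 was called without LPS 2 (adjusted p = 0.00876, in a range of 0.00876 to 0.281). No coding gene near Id4 passed the filter, so the high Id4 levels of LPS 1, LPS 3 and LPS 7 had no tested neighbour to be set beside.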

How the data were processed

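The table of FPKM values was deposited by the authors, with 1 value per gene row and library. Cuffdiff 2.2.1, Cufflinks 2.2.1, TopHat2 2.1.0, Trimmomatic and Bowtie2, with build GRCm38, are named in the submitters' processing notes. The role and order of these tools, the use of strand and any further scaling are not given in the sources used here. The members and lists were chosen with earlier results of these data known. Tests were two-sided in limma 3.58.1 (R 4.3.3) on log2(FPKM + 1), a scale that understates changes of low genes. Empirical Bayes was robust with a trend, and p-values were adjusted by Benjamini-Hochberg. Rows entered when 4 of the 12 libraries (for age, 4 of the 8 tumours) reached 1 FPKM. FPKM is no count, so no counting interval is given. The fit was tested on simulated data. Rows joining several gene names were not used for lists.

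Named genes were the members, from each list the 2 called genes with the largest difference each way and the most abundant gene not called, tested neighbours within 100 kb, the 3 most alike rows per member, and Notch1, Pparg and Cox4i2 as context. Further lower or higher list genes, Tcf3, Smad1, Bmp2, Bmp4, Smad9, Timp4, other rows of the wider likeness search, single marker genes, Gm10800 and the noncoding rows beside Id4 were named after their values were seen. Alternatives were pseudocounts of 0.1 and 0.5, other filters, median ratio and quantile scaling, array quality weights, plain empirical Bayes, a replicate block, leaving out each library, and, added after the data were seen, leaving out WAT 1 and WAT 4. Fits that leave out libraries kept the main set of rows. Nothing says that the libraries share no litter, so p-values measure the spread between these samples.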

Additional observations from a re-analysis of the deposited data

Results flagged for a closer look

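A sample was looked at again where it lay far from the rest of its group, by the gap to its nearest neighbour as a share of the group's range. Among 88 groups of values, 16 held such a sample. The cut-off is set to flag about 1 in 20 groups of normally distributed values. FPKM of genes picked with results known need not follow that rate, so the counts only describe. Of the 8 groups of ID gene values, 4 held one, and no test is drawn from this. Id2 in LPS 7 (35.4 FPKM) and Id3 in LPS 6 (100.7 FPKM) lay far above the other tumours. In WAT 4, Id3 (37.0 FPKM) lay below and Id4 (3.60 FPKM) above the other fat samples. WAT 4 also held skeletal muscle markers at 1163 FPKM in sum, as WAT 1 did at 1419 FPKM, and their part in these values was not tested.

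Among other genes, LPS 5 was apart for Chrdl1 (0.696 FPKM, highest), Grem1 (0.0329 FPKM, highest), Atoh8 (0.823 FPKM, highest), Elk4 (28.2 FPKM, lowest) and Smad4 (15.4 FPKM, lowest). LPS 5 is the library with the large Gm10800 value and the low median ratio. Single tumours also stood high for Lyl1 (LPS 1, 3.40 FPKM), Gdf5 (LPS 3, 4.31 FPKM) and Junb (LPS 6, 296 FPKM). Single fat samples stood apart for Tcf4 (WAT 2, 35.7 FPKM, lowest), Bmp6 (WAT 3, 5.17 FPKM, highest), Gdf5 (WAT 4, 3.65 FPKM, highest) and Smad6 (WAT 4, 5.21 FPKM, highest).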

How the results depend on the processing

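None of the alternatives run turned the sign of a log2 difference or age slope of Id1, Id2, Id3 or Id4. Leaving out each library in turn gave differences of -0.38 to -0.08 for Id1, -1.77 to -1.25 for Id2, -1.05 to -0.61 for Id3 and 0.72 to 1.69 for Id4, and slopes of -0.61 to -0.39, 0.23 to 1.06, -0.61 to -0.11 and 0.24 to 1.80. Without WAT 1 and WAT 4 the differences were -0.36, -1.45, -0.86 and 1.51. The main fit did not pair LPS and WAT libraries that share a replicate number, whose residuals correlated at -0.0170 to 0.0921. Such values cannot show whether those libraries share a litter or a batch. With replicate numbers as a block, the differences were -0.27, -1.81, -0.94 and 2.02, and the lists held 14 higher and 16 lower genes. Over single left-out libraries the lists held 12 to 17 higher and 15 to 19 lower genes, and without WAT 1 and WAT 4 they held 10 and 12. A filter of at least 5 FPKM left fewer genes to test and 7 lower ones. In single lists that filter left 0 lower bHLH genes, 0 lower ligands, 3 lower antagonists, and 1 higher and 1 lower target gene. Higher E proteins were 2 with either scaling or array quality weights and 0 without any 1 WAT library. Over all rows, 6813 were called in all and 4319 without WAT 1 and WAT 4. The 3 lower neighbours became 1 under that filter, quantile normalization, the block and without WAT 1 and WAT 4, and 1 to 4 over single left-out libraries. The cause was not tested for these. Quantile normalization moved the median of all rows to 0.10, against -0.05 as deposited, and gave -0.15 for Id1. Genes near 0 that were not called turned sign. Gdf5 ran from -0.14 to 0.34 over left-out libraries. Bcl2l1 ran from -0.053 to 0.19 and was -0.049 without WAT 1 and WAT 4. Smad4 was 0.023 with array quality weights, 0.034 with median ratio scaling, 0.032 with quantile normalization, 0.031 with the block, and ran from -0.062 to 0.053. H13 was 0.033 with array quality weights, 0.038 with median ratio scaling, 0.047 with quantile normalization, and ran from -0.12 to 0.06. Kidins220 was 0.032 with median ratio scaling, 0.031 with quantile normalization and 0.000946 with the block, and Rpl11 was 0.045 with the block. Fragment totals are not in the table, so what depth limits is known only from the low values.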
